A study of Mus musculus with 8 samples.

Results

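Histone lysine methyltransferases, histone lysine demethylases and their close relatives were taken as a set of 58 genes out of the 21631 protein-coding genes of the autosomes and chromosome X in the RefSeq table for mouse build GRCm38.p6. They were chosen by symbol: names beginning Kmt, Kdm, Setd, Ehmt, Nsd, Suv39h or Prdm followed by a digit, together with Ezh1, Ezh2, Dot1l and Ash1l. Measured values played no role in the rule. The set held 27 methyltransferases and other SET domain genes, each put in 1 class. The class of H3K4 had 7, H3K9 4, H3K27 2, H3K36 5, H3K79 1 and H4K20 3, with 5 other SET domain genes. The rest were 2 demethylases of the LSD1 type, 15 demethylases with a Jumonji C (JmjC) domain and 14 genes of the PRDM family.

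The measurement was CUT&Tag for lactylation of histone H4 at lysine 12 (H4K12la), in which an antibody guides a transposase that cuts and tags DNA next to the modified histone. Brains without cerebellum of wild-type (WT) mice and of 5XFAD mice were dissociated, and either all cells (total cells) or cells bound by CD11b-coated beads (microglia) were used. Each preparation of each genotype is 1 group, and the 4 groups had 2 libraries each. 5XFAD mice are a model of Alzheimer disease with mutated human transgenes driven by the mouse Thy1 promoter, which acts mainly in neurons. CD11b is carried by other myeloid cells besides microglia. Neither the labels nor the lists give the age or sex of the mice or how many stand behind a library, so p-values measure only the spread between these libraries, which may be technical.

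Methyltransferases of the SET domain family and the unrelated Dot1l transfer methyl groups to lysines of histones H3 and H4, and LSD1 type and JmjC enzymes remove them. Methylation at H3K4 and H3K36 is known from active genes, and methylation at H3K9 and H3K27 from silenced ones. PRDM proteins carry a PR domain related to SET together with zinc fingers, and only some of them are known to methylate histones. Lactylation is an acyl mark derived from lactate that has been described at promoters of active genes in macrophages and other cells.

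Each library came as 1 list of peaks, 22300 to 41783 long, and the share of all genes marked was 33.7% with the shortest list and 49.5% with the longest. Peaks were wider in microglia, with median widths of 580 to 735 bp against 287 to 366 bp in total cells. A list does not hold read counts, so depth is unknown, and a missing peak means only that none was listed. Of 12 microglia markers, 11 or 12 had a gene-end peak in each microglia library and 2 to 7 in each total cell library. Of 8 neuron markers, 6 were without a gene-end peak throughout, including Snap25, Syt1 and Tubb3, while Map2 was marked in 4 of 4 total cell and 0 of 4 microglia libraries and Rbfox3 in 0 of 4 and 3 of 4. In total cells fewer cells carrying a mark and less of it per cell cannot be told apart.

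A gene-end peak was any peak that overlapped the 2 kb on either side of 1 of the 2 annotated ends of a gene. Such a peak was listed for 35 and 30 of the 58 genes in WT total cells, 39 and 32 in 5XFAD total cells, 31 and 41 in the WT microglia and 36 and 46 in the 5XFAD microglia. The share ran from 51.7% to 79.3% and lay above the share of all genes, 33.7% to 49.5%, in 8 of 8 libraries. When every list was reduced to its 22300 highest scoring peaks, 29 to 37 of the 58 genes were marked, at most 63.8%, against 33.7% to 36% of all genes. The set also held longer genes, with a median length of 56.3 kb against 17.3 kb, and the part of length in the difference was not tested. For 33 of the 58 genes a gene-end window overlapped the window of a neighbouring protein-coding gene, so that a peak there could not be assigned to 1 gene.

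**Figure D1:**
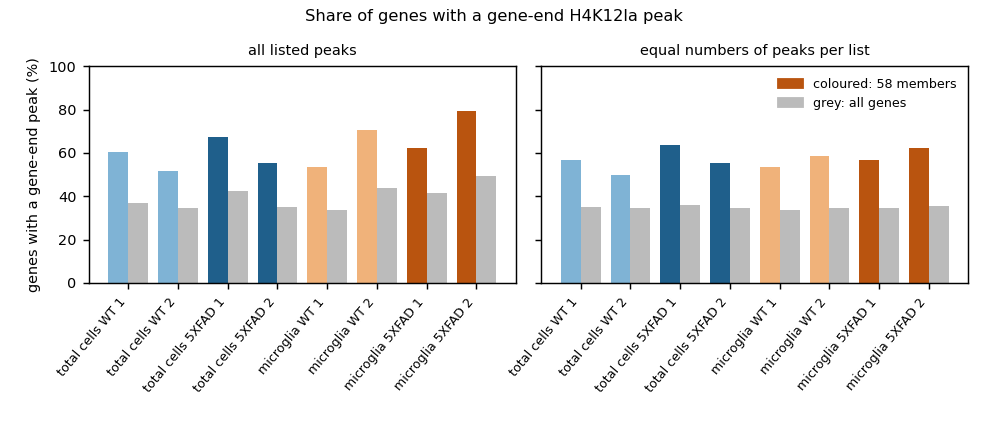
Share of genes with a gene-end H4K12la peak (percent, vertical axis) in each of the 8 libraries for the 58 histone methylation genes (coloured bars) and all 21631 genes (grey bars), with all listed peaks on the left and with the 22300 highest scoring peaks of each list on the right. The coloured bar is the taller one in each of the 8 libraries in both panels.

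Each of the 8 libraries had a gene-end peak at 17 genes (29.3%), against 17.9% of all genes. Among these 17 were Setd7, Ash1l, Kdm4a, Prdm2, Kmt2e, Setd5, Kdm5a, Nsd3, Setd6, Prdm1, Kdm1b, Nsd1, Setd4, Prdm9, Kdm2a and Kdm6a. In no library was a gene-end peak listed for 8 genes (13.8%), against 40.5% of all genes: Prdm6, Prdm10, Prdm12, Prdm13, Prdm14, Prdm16, Setd1b and Ezh1. The remaining 33 genes were marked in 1 to 7 libraries. The classes split as follows. All 8 libraries marked 3 of 5 H3K36 methyltransferases and 4 of 5 other SET domain genes, but 1 of 7 H3K4 methyltransferases and 0 of 4 H3K9 methyltransferases. Of the 8 unmarked genes, 6 were of the PRDM family. These small classes are labels and not a clean split by histone mark. Setd7, which can methylate H3K4, is counted under other SET domain genes, and the 1 H3K4 gene is Kmt2e, whose H3K4 activity is in doubt. Each of the 17 demethylases had a gene-end peak in at least 1 library.

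**Figure D2:**
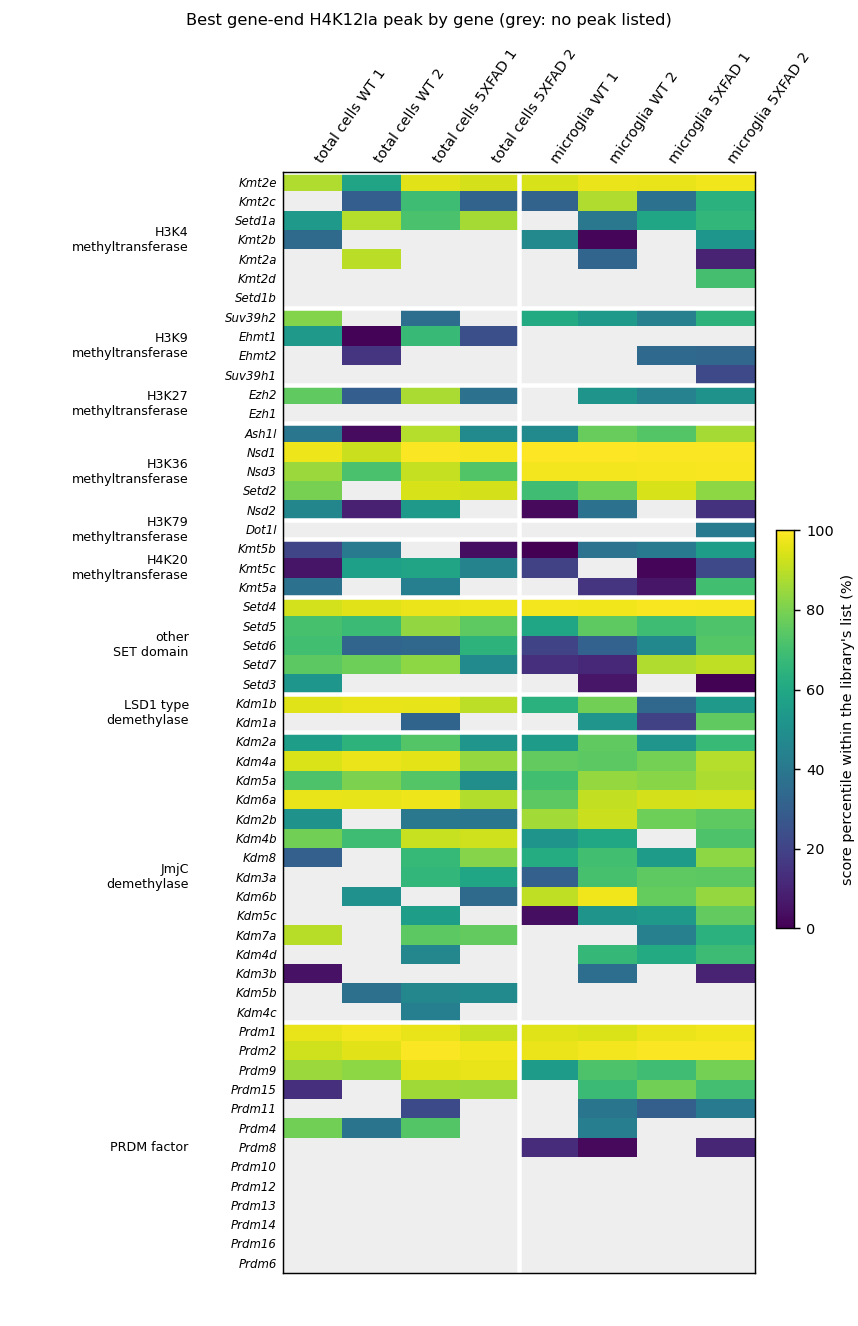
Score percentile within its own list (colour scale, percent) of the highest scoring gene-end peak of each gene shown (rows, by enzyme class) in the 8 libraries (columns), with grey where no peak was listed. Nsd1, Prdm1, Prdm2 and Setd4 are bright in all 8 columns, and 6 PRDM genes, Setd1b and Ezh1 are grey throughout.

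The height of a peak was described by its score percentile, its rank by the authors' score within its own list, where 100 is the highest peak. These percentiles rank peaks inside 1 list and are given as a description without a test. The share of all genes whose 2 preparations do not overlap was not counted. A separation described below is therefore not read as particular to these genes. H3K36 methyltransferases, which write the mark of transcribed gene bodies, included the top gene of the set: among the 17 genes of all 8 libraries, high mean percentiles were those of Nsd1 (98.2), Prdm2 (97.5), Setd4 (97.1), Prdm1 (95.9) and Kdm6a (91.4). The best peak of Nsd1, which dimethylates H3K36, ranked at percentile 97.6 and 91.8 in WT total cells, 99.2 and 98.5 in 5XFAD total cells, 99.7 and 99.7 in the WT microglia and 99.5 and 99.4 in the 5XFAD microglia. The lowest of the 8 values was in total cells WT 2. Its relative Nsd3 stood at 85.1, 71.5, 91.2 and 72.7 in the 4 total cell libraries and at 98.3, 98.2, 98.5 and 98.9 in the 4 microglia libraries, so that the 2 preparations did not overlap. Windows of Nsd1 touched those of Prelid1 and Rab24, and windows of Nsd3 those of Letm2 and Plpp5. Ash1l was among the 3 lowest of the 17 genes, with a mean percentile of 57.9 ± 29.2 (SD, n = 8). It ranked at 39.4 and 2.79 in WT total cells, 88.9 and 48.0 in 5XFAD total cells, 47.9 and 76.9 in WT microglia and then 73.2 and 86.5 in 5XFAD microglia. Both WT total cell values were below the other 6. Setd7 and Setd6 were the others of the lowest 3. Setd2, the main trimethylase of H3K36, was marked in 7 libraries and Nsd2 in 6.

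Among other SET domain genes, Setd4 had percentiles of 93.2, 95.4, 97.2 and 97.4 in total cells and 98.2, 97.8, 99.1 and 98.8 in microglia. Every microglia value was above every total cell value, though all 8 lie close together. Windows of Setd4 overlapped those of Cbr1. Setd6, known to methylate the RelA subunit of NF-kappaB, had the lowest mean of the 17 genes, 46.7 ± 20.2 (SD, n = 8). Its percentile was 69.9, 32.6, 33.8 and 64.6 in total cells and 20.7, 31.5, 46.8 and 73.5 in microglia, so that both WT microglia values were below the other 6. Setd5 was marked in all 8 libraries, and Setd3, an actin histidine methyltransferase, in 3.

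In the PRDM family the 8 marked genes split between strong and sparse ones. Prdm2 reached 92.9, 95.5, 99.3 and 97.7 in total cells and 97.2, 98.3, 99.4 and 99.5 in microglia. Prdm1, which encodes the repressor Blimp of lymphoid and myeloid differentiation, reached 96.6, 98.1, 96.7 and 91.5 in total cells and 95.1, 94.5, 96.9 and 97.8 in microglia. Neither gene separated the preparations. Prdm9, which marks recombination sites in meiotic germ cells, had a peak in all 8 libraries, at 85.1, 83.2, 95.7 and 96.6 in total cells and 54.97, 72.1, 69.3 and 78.99 in microglia; the preparations did not overlap, and neither did its windows with those of another coding gene. Prdm4, Prdm8, Prdm11 and Prdm15 were marked in 3 to 6 libraries. Prdm12, Prdm13, Prdm14 and Prdm16, known from sensory neurons, spinal cord, germ cells and brown fat, were among those never marked at a gene end. Inside the gene, Prdm16 had 6, 9 and 2 peaks in total cells WT 1, WT 2 and 5XFAD 1, and none in the other libraries.

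H3K4 methyltransferases, which mark promoters and enhancers, were led by Kmt2e, a divergent relative for which H3K4 activity is in doubt. It ranked at 88.1, 58.3, 95.6 and 93.4 in total cells and 93.8, 97.0, 96.9 and 98.0 in microglia, with overlap between the preparations, and its windows overlapped those of Srpk2. Kmt2c and Setd1a were each marked in 7 libraries, Kmt2b in 4, Kmt2a in 3 and Kmt2d in 1. The peaks of Kmt2c and Setd1a were more often at the far end than at the start: of 8 libraries, 7 had an end-side peak and 3 a start-side peak for Kmt2c, and 7 and 2 for Setd1a, whose end lies near Hsd3b7 and Orai3.

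Among the H3K9 methyltransferases, Suv39h2 was marked most often. Its percentiles were 81.6 in total cells WT 1, 36.2 in total cells 5XFAD 1, 61.0 and 53.8 in the WT microglia and 43.4 and 64.6 in the 5XFAD microglia. No peak was listed for it in the second library of either total cell group. Ezh2, the catalytic subunit of the Polycomb complex that methylates H3K27, ranked at 75.5, 29.7, 87.4 and 37.6 in total cells; in microglia it had no peak in WT 1 and ranked at 51.6 in WT 2 and at 44.3 and 51.1 in 5XFAD. Ezh1, its alternative subunit in non-dividing cells, had no gene-end peak. The H3K79 methyltransferase Dot1l had a single peak, in microglia 5XFAD 2, at percentile 40.9. Kmt2d (70.6) and Suv39h1 (21.9) were likewise marked only in that library, which has the longest list. Of the H4K20 methyltransferases, Kmt5c was listed at 5.74, 56.4, 58.2 and 44.6 in total cells and at 19.3 in WT 1, none in WT 2, 1.57 in 5XFAD 1 and 21.9 in 5XFAD 2 of microglia. The preparations overlapped. Kmt5b was marked in 7 libraries and Kmt5a in 5.

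Among the demethylases some separated the preparations by rank and others did not, without a count of such genes over all genes. Kdm1b, the LSD1 relative that acts on H3K4 in gene bodies, ranked at 95.1, 96.5, 96.3 and 90.1 in total cells and at 63.9, 78.7, 33.3 and 53.5 in microglia, without overlap. Windows of Kdm1b overlapped those of Dek and Tpmt. Kdm6a, the X-linked H3K27 demethylase, ranked at 96.6, 96.3, 97.3 and 88.6 in total cells and at 74.6, 90.7, 93.6 and 93.1 in microglia, with overlap. Kdm6b, the H3K27 demethylase known for its induction in activated macrophages, showed the reverse order. It had no peak in total cells WT 1 and 5XFAD 1, ranked at 50.7 in WT 2 and 34.4 in 5XFAD 2, and ranked at 90.3 and 98.0 in the WT microglia and 76.2 and 84.1 in the 5XFAD microglia. All 4 microglia values were above both listed total cell values. Windows of Kdm6b overlapped those of Cyb5d1, Dnah2, Naa38 and Tmem88, so the peak could belong to any of them. Kdm5b, an H3K4 demethylase, was marked in 3 of 4 total cell libraries (36.9, 46.4 and 48.0) and in no microglia library. Its windows overlapped those of Mgat4e.

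Kdm4a, a demethylase of H3K9 and H3K36, had a peak at both its ends in all 8 libraries. It ranked at 94.5, 97.2, 96.1 and 84.1 in total cells and at 76.1, 74.6, 79.2 and 88.8 in microglia, and its windows overlapped those of St3gal3. The lowest total cell value was below the highest microglia value. Kdm2b ranked at 51.2, 40.0 and 39.2 in 3 total cell libraries and at 86.2, 92.2, 78.0 and 75.4 in microglia, so that all microglia values were higher; Rnf34 shares its window. Of the other demethylases, Kdm5a and Kdm2a were marked in all 8 libraries at mean percentiles of 74.9 and 62.0, Kdm4b and Kdm8 in 7, Kdm1a and Kdm4d in 4 and Kdm3b in 3.

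Patterns of presence were read at the level of groups: a peak in every library of 1 group and in none of the other. No gene was marked by every microglia library and by no total cell library (1.52% of all genes were). Ehmt1 alone showed the opposite pattern, found in 0.656% of all genes. In microglia, 2 genes were 5XFAD only, Kdm7a and Ehmt2 (3.23% of all genes), and 0 were WT only (0.587%). In total cells, Kdm3a was the 1 gene of the 5XFAD only pattern (3.14%), and 0 genes were WT only (1.66%). The counts, 0, 1, 2, 0, 1 and 0 of 58 genes, come to at most 3.45% of the set and lie near the shares of all genes. In several patterns leaving out 1 library changed them: 5XFAD only in microglia rose to 9 genes without microglia WT 2 and 5 without microglia 5XFAD 1, WT only in microglia to 4 without microglia 5XFAD 2 and 1 without WT 1, and microglia only to 1 without total cells 5XFAD 1 or without microglia 5XFAD 1. In total cells, 5XFAD only rose to 6 without WT 1, to 3 without WT 2 and to 6 without 5XFAD 2, WT only to 2, 3, 2 and 1 without WT 1, WT 2, 5XFAD 1 and 5XFAD 2, and total cells only to 2 without WT 1.

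Ehmt1 and Ehmt2 encode GLP and G9a, which act as a pair to mono- and dimethylate H3K9. The best gene-end peak of Ehmt1 ranked at 54.3 and 1.01 in WT total cells and 67.8 and 24.2 in 5XFAD total cells, and microglia had none. Peaks covered 242, 236, 139 and 75 bases of its windows in these 4 libraries, which is little, and in 3 of the 4 they lay at the end of the gene and not at its start. The pattern was lost with a 1 kb window, with equal numbers of peaks, with scores of at least 50 and when the peak midpoint had to lie in the window. Inside the gene, 69.3 kb from its start at chr2:24849877-24850883, a peak was listed in the microglia libraries, 4 of 4, and never in total cells, at a mean percentile of 64.4 and a range of 55.9 to 75.6. Ehmt2 had peaks at 34.3 and 32.9 in 5XFAD microglia, none in WT microglia, and 15.3 in total cells WT 2. The covered bases were 167 and 501 in 5XFAD microglia, and the end side held a peak in all 3 marked libraries. The pattern was lost with a 1 kb window and with equal numbers of peaks. Its windows overlapped those of Slc44a4 and Zbtb12.

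Kdm7a, a JmjC demethylase of H3K9 and H3K27, had no gene-end peak in WT microglia and ranked at 43.4 and 63.9 in 5XFAD microglia. It was also marked in total cells, at 89.3 in WT 1, 74.8 in 5XFAD 1 and 75.9 in 5XFAD 2. All 5 peaks lay at the start side, and the pattern was lost at windows of 1 kb and of 5 kb. Kdm3a, a hypoxia-inducible demethylase of H3K9, was unmarked at its ends in WT total cells and ranked at 66.1 and 59.3 in 5XFAD total cells. In microglia it was marked in all 4 libraries, at 30.5 and 71.0 in WT and 75.3 and 74.97 in 5XFAD. Covered bases were 0 and 0 in WT total cells, 1068 and 1284 in 5XFAD total cells, 372 and 1571 in the WT microglia and 1106 and 2212 in the 5XFAD microglia. The Kdm3a pattern held under 5 of 5 other settings of window, score and overlap. The microglia marker P2ry12 showed the same presence pattern as Kdm3a, and of the 12 microglia markers 2 and 3 were marked in WT total cells against 7 and 4 in 5XFAD total cells. Of 6 vascular markers, 0 and 0 were marked in WT total cells and 3 and 1 in 5XFAD total cells. Astrocyte markers stood at 1 and 2 of 6 in WT and 3 and 2 in 5XFAD total cells, and oligodendrocyte markers at 1 and 0 against 1 and 1. Neuron markers stood at 1 of 8 in each of these 4 libraries. The 7 microglia and 3 vascular markers were those of 5XFAD 1, whose list of 32967 peaks is the longest of total cells. The list of 5XFAD 2 holds 22807 peaks, and those of WT 25271 and 22543. The parts of cell numbers and of list length in the Kdm3a pattern were not tested.

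**Figure D3:**
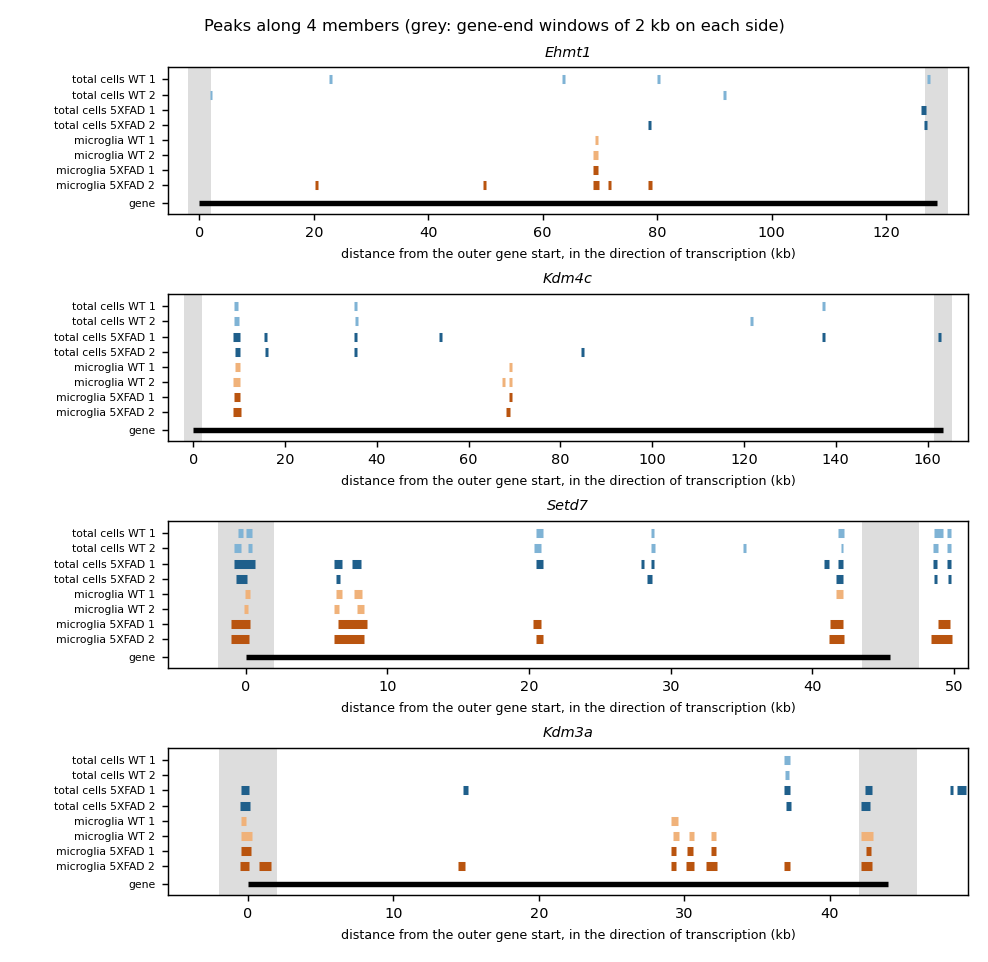
Peaks (coloured bars, 1 row per library) along Ehmt1, Kdm4c, Setd7 and Kdm3a by distance from the outer gene start in kb (horizontal axis), with the gene as a black line and the 2 kb gene-end windows in grey; very narrow peaks are widened to stay visible. Kdm3a has no bar in the grey windows for WT total cells, Ehmt1 has a microglia column near 69.3 kb, and Kdm4c has a column in all 8 rows near 9.49 kb, outside the windows.

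Start sites were examined for the 42 genes with an entry in the RefSeq promoter table. At the start side, 16 to 33 of these 42 genes had a peak (38.1% to 78.6%), against 3 to 8 at the end side (7.14% to 19.0%). Over all 14014 genes long enough and with a strand, the shares were 34.0% to 50.7% and 8.25% to 17.5%. The 42 genes have 58 annotated starts, of which 10 (17.2%) had a peak within 2 kb in all 8 libraries, against 16.4% of all 21045 starts. CpG dinucleotides per 300-base promoter had a median of 26.5 in these 58 starts and 13 over all promoters. Among the 58, the median was 21 for the 10 starts marked in all 8 libraries, 32 for the 40 marked in 1 to 7 and 10 for the 8 marked in none. Over all promoters it was 21 for starts marked in all 8 libraries and 4 for unmarked ones. A high CpG count did not always go with presence in every library. The Kdm7a start, with 65 CpG against a highest value of 67 over all promoters, had a peak within 2 kb in 5 libraries. The midpoints of these peaks lay at a median of 1483 bases downstream of the start, outside the 300-base promoter.

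**Figure D4:**
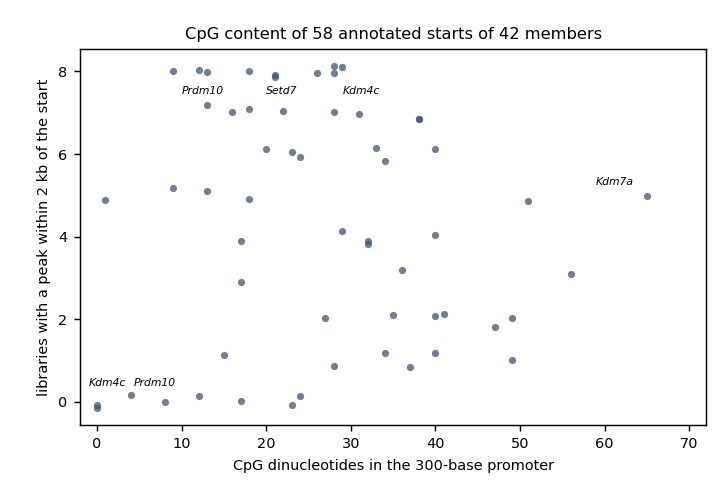
Number of libraries with a peak within 2 kb of the start (vertical axis, points shifted slightly at random to separate them) against CpG dinucleotides in the 300-base promoter (horizontal axis) for 58 annotated starts of 42 genes. The inner Kdm4c start with 28 CpG lies at 8 libraries and its outer start with 0 CpG at 0, and Kdm7a lies at 65 CpG and 5 libraries.

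Kdm4c, a demethylase of trimethylated H3K9 and H3K36, shows what the gene-end windows miss. By its outer ends it had 1 peak, in total cells 5XFAD 1, at percentile 43.0. RefSeq places its outer start at chr4:74242497 and a second start further in, at chr4:74251879. The outer start had no peak within 2 kb in any library, whereas the second had one in all 8, in a merged region at chr4:74251096-74252871 with a mean percentile of 91.1 and a range of 85.6 to 98.3. Prdm10 was alike: none of its gene-end windows was marked, but its annotated start at chr9:31280549 had a peak in all 8 libraries (mean percentile 74.7) and the one at chr9:31313427 had none. Both genes were singled out after their values were seen.

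Starts of 5 genes were chosen from those described here. The marked and unmarked Kdm4c starts can be compared with that of Setd4, marked in all 8 libraries at high rank. Setd7 had low coverage in WT microglia. Kdm3a and Kdm7a had a 5XFAD only pattern in 1 preparation each, and that of Kdm7a was lost at windows of 1 kb and of 5 kb. Promoters of these starts are printed below. They are RefSeq promoters of build GRCm38.p6, 250 bases before to 50 after the start, 5′ to 3′ on the strand of the gene: Kdm4c outer start chr4:74242247-74242546 (plus), Kdm4c inner start chr4:74251629-74251928 (plus), Setd4 chr16:93603766-93604065 (minus), Setd7 chr3:51560774-51561073 (minus), Kdm3a chr6:71632637-71632936 (minus) and Kdm7a chr6:39206724-39207023 (minus). Capitals mark matches on either strand to any of 6 motifs, CCGGAAG (ETS type), GGGCGG (GC box), CCAAT, TGACGTCA and the longer motifs known from NRF1 and YY1.
Kdm4c outer start: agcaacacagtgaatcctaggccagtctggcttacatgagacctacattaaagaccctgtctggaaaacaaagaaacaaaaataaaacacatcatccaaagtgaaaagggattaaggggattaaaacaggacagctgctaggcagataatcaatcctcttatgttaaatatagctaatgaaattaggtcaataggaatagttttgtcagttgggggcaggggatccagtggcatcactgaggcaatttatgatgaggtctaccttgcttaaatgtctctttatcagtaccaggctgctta
Kdm4c inner start: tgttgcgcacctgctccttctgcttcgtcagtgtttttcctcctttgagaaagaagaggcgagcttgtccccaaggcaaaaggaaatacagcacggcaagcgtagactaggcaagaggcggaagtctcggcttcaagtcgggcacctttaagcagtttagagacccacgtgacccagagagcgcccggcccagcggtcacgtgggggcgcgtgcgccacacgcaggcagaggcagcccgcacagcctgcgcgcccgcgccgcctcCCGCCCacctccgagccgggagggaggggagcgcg
Setd4: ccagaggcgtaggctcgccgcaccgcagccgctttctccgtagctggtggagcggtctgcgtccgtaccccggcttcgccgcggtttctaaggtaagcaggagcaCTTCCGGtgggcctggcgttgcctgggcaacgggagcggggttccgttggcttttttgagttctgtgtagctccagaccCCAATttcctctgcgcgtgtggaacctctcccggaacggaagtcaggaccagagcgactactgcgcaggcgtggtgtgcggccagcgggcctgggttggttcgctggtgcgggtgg
Setd7: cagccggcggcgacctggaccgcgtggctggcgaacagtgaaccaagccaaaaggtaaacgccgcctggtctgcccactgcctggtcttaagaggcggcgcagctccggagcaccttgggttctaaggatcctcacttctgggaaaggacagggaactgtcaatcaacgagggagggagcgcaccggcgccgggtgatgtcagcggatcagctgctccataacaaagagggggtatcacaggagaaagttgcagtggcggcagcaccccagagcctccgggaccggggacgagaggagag
Kdm3a: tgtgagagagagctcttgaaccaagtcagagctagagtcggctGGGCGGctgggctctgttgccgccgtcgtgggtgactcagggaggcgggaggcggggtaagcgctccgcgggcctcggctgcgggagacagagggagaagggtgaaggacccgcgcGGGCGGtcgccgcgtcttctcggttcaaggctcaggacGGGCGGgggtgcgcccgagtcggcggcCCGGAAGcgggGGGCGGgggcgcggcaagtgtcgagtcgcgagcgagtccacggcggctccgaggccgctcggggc
Kdm7a: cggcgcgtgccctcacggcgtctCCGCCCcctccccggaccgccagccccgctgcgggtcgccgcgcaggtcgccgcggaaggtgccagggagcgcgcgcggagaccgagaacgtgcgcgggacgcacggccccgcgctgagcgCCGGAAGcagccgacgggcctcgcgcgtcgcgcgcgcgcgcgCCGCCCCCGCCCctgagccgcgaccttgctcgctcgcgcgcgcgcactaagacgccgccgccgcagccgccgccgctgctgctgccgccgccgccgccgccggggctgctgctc

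The outer Kdm4c start has 0 CpG and no match, and the inner one has 28 CpG and a single GC box on the minus strand. Setd7 has 21 CpG and no match. Kdm3a has 40 CpG with 4 GC boxes and 1 CCGGAAG. Over the 58 starts, GGGCGG was found in 38 (65.5%, against 46.7% of all promoters), CCAAT in 25 (43.1%, against 38.5%) and CCGGAAG in 8 (13.8%, against 11.7%). The YY1 motif was found at 4 starts, of Dot1l, Kdm5c, Suv39h1 and Suv39h2 (6.9%, against 1.22%), TGACGTCA at 1, of Suv39h2 (1.72%, against 2.26%), and the NRF1 motif at 0 (1.34% of all promoters). Of these 4 genes with the YY1 motif, Dot1l and Suv39h1 were marked in 1 library, Kdm5c in 5 and Suv39h2 in 6. A match is a run of letters and not a measured binding site.

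How much of the windows was covered was compared with limma in the 17 genes with a gene-end peak in all 8 libraries, fitted among 3871 such genes. Since peaks were wider in microglia, the number of covered bases was divided by the library median of these genes, 508 to 747 bases in total cells and 763 to 1307 in microglia, before the log2 comparison; differences are thus relative to the typical gene of the library. With an adjusted p threshold of 0.05 (limma, Benjamini-Hochberg over 3871 genes), 0 of the 17 were higher in microglia than in total cells (8.24% of all fitted genes were) and 3 were lower (6.74%), among them Setd7 and Nsd1. The median difference was -0.28 on the log2 scale over the 17 genes and -0.03 over all 3871.

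Setd7 encodes a methyltransferase of H3K4 and of many non-histone proteins. Peaks covered 842 and 715 bases of its windows in WT total cells, 1452 and 775 in 5XFAD total cells, 325 and 302 in the WT microglia and 1297 and 1283 in the 5XFAD microglia. Both WT microglia libraries were below the other 6. Relative to the library median it was at 1.47, 1.41, 1.94 and 1.38 in total cells, 0.426 and 0.287 in the WT microglia and 1.37 and 0.982 in the 5XFAD microglia. The difference of microglia from total cells was -1.27 (log2, SE 0.24, limma adjusted p = 0.0118). Within microglia, the difference of 5XFAD from WT was 1.73 (SE 0.34), which did not pass the threshold (limma adjusted p = 0.14). The interaction of genotype and preparation, 1.55, did not pass either (adjusted p = 0.295 in limma). Score percentiles were also lowest in WT microglia but did not put microglia as a whole below total cells: they were 74.9, 77.9, 82.9 and 48.0 in total cells, 14.0 and 11.3 in the WT microglia and 88.1 and 90.4 in the 5XFAD microglia, the last 2 above all total cell values.

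For Nsd1, covered bases were 1402 and 1526 in WT total cells, 1635 and 1227 in 5XFAD total cells, 1091 and 1152 in the WT microglia and 1028 and 1407 in the 5XFAD microglia. Relative to the library median, its 4 microglia values, 1.08 to 1.43, were below its 4 total cell values, 2.18 to 3.0. Its score percentiles ran the other way, with all 4 microglia values above all 4 total cell values. The difference was -1.06 (log2, SE 0.21, limma adjusted p = 0.0132). These 3 calls are statements about coverage relative to other genes. Without division by the median, all 3871 genes shifted by a median of 0.72 toward microglia and the 17 by 0.47; none of the 17 was then lower (0.387% of all genes), and 5 were higher (38.5% of all genes): Setd5, Nsd3, Kmt2e, Ash1l and Prdm1.

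Single libraries changed these calls. Some or all of the 3 calls were lost when certain single libraries, of either preparation, were left out. Each such fit leaves 1 library in a group. Over these fits the difference ran from -1.41 to -1.13 for Setd7 and from -1.16 to -0.97 for Nsd1. Setd5 covered 295, 426, 593 and 264 bases in total cells and 1080, 1720, 615 and 1454 in microglia, with no overlap, but relative to the library median microglia 5XFAD 1 (0.651) was below total cells WT 2 (0.839) and 5XFAD 1 (0.794). Its relative difference of 0.84 did not pass (limma adjusted p = 0.0725). The difference of Setd5 ran from 0.65 to 1.04 when 1 library was left out, and its side of the threshold also depended on single libraries.

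**Figure D5:**
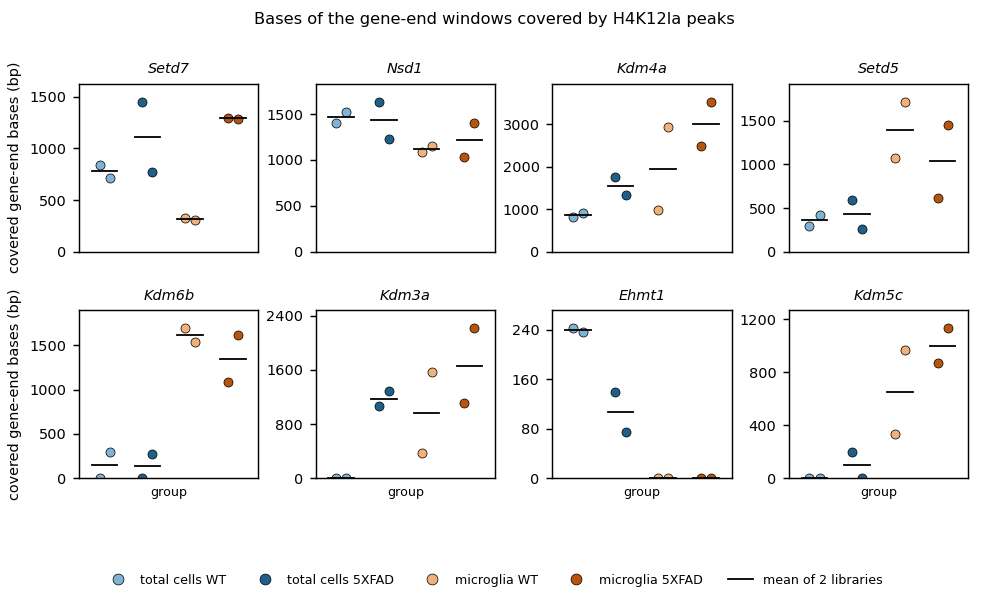
Bases of the gene-end windows covered by H4K12la peaks (vertical axes, each from 0 on its own scale) in the 4 groups for 8 genes; points are libraries and lines are means of 2 libraries. Both WT microglia points of Setd7 lie at 302 and 325 bases, and Ehmt1 has 0 in all 4 microglia libraries.

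Between genotypes, 0 of the 17 genes passed in microglia (0.0258% of all fitted genes were higher and 0.0258% lower) and 0 in total cells (0.207% higher and 0.0775% lower). With limma's p before adjustment, 2 of the 17 were under 0.05 in each, beside 282 of all 3871 genes in microglia and 474 in total cells: Setd7 and Ash1l (-0.84, adjusted p = 0.665) in microglia, and Kdm2a (-0.87, adjusted p = 0.33) and Setd6 (-0.84, adjusted p = 0.362) in total cells. The interaction gave 0 calls (0.0% in both directions) among all 3871 genes, where 404 had limma p under 0.05 before adjustment.

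Genes absent from some libraries could be fitted only with an added constant. With a peak required in at least 4 libraries and 100 bases added, 9382 genes and 40 of the 58 were fitted. A gene can enter this fit through the preparation in which it is marked, and Ehmt1, Kdm5c and Kdm6b do so, so their values are given between preparations without a test and nothing is read from the count of the set (10.8% of all genes were higher in microglia and 7.46% lower). Kdm5c, an X-linked H3K4 demethylase in which mutations cause intellectual disability, covered 0, 0, 198 and 0 bases in total cells and 334, 970, 870 and 1130 in microglia. Kdm6b covered 0, 299, 0 and 275 bases in total cells and 1687, 1531, 1079 and 1618 in microglia. For both genes every microglia value was above every total cell value, and the share of all genes with such a separation was not counted. In total cells Kdm3a, which meets the filter by its 4 microglia libraries alone, passed as higher in 5XFAD (limma adjusted p = 0.0413). Of all genes, 1.22% were higher and 0.33% lower. Both WT libraries had 0 for Kdm3a, so the size of the difference depends on the 100 bases added. The call restates the presence pattern of Kdm3a and is no separate support for it.

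Peaks inside the genes, away from both ends, were merged over the 8 lists into 256 regions, and 15 genes had none. Of the 8 genes without a gene-end peak, 5 had no inner peak either, while Prdm10, Prdm16 and Setd1b had some. Few of them were shared by the libraries: 7 regions (2.73%, against 4.03% of 42882 such regions of all genes) were found in all 8 libraries, and 119 (46.5%, against 41.8%) in 1. Those in all 8 lay in Ash1l, Kdm1a, Kdm4c, Kmt2e, Nsd2, Prdm1 and Prdm10. In Kdm1a, which encodes LSD1, the region was 15.2 kb from the start, at chr4:136587025-136588135, with percentiles from 49.9 to 81.3, while its gene-end windows were marked in 4 libraries. In Prdm1 it lay 80.5 kb from the outer gene start, at chr10:44447411-44448813 and percentiles from 14.0 to 94.6. The only Prdm1 start in the promoter table is further in and nearer to this region, at chr10:44458748.

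Regions of the microglia libraries only, present in 4 of 4, numbered 7 (2.73%, against 4.3%), in Ehmt1, Kdm2b (2 regions), Kdm3a, Kdm4b, Kdm4c and Kdm5c. The opposite pattern was found for 5 regions (1.95%, against 1.37%), in Kdm4c, Kmt2a, Kmt2c, Kmt2e and Setd7. Kdm4c held 1 of each kind: at 35.2 kb from its outer start a region was listed in total cells only and at 68.7 kb one in microglia only, beside the shared region at its second start. Kdm2b, an H3K36 demethylase of CpG islands and a partner of Polycomb, had 2 microglia-only regions. They lay 24.1 kb (chr5:122964197-122966189) and 94.1 kb (chr5:122894571-122895759) from its outer start, at mean percentiles of 56.3 and 71.5. Annotated Kdm2b starts further in, at chr5:122900350 and chr5:122900367, are nearer to the region at 94.1 kb. In Kmt2c the total-cell-only region at 115.1 kb (chr5:25383465-25383990) had a mean percentile of 81.7.

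Genes that work with these enzymes were counted from 5 lists, 71 genes in all. Of these, 18 (25.4%) were marked at a gene end throughout the 8 libraries and 7 (9.86%) nowhere, beside 17.9% and 40.5% of all genes. Protein arginine methyltransferases and their partner Wdr77 were marked in all 8 libraries in 5 of 10 cases (Carm1, Prmt2, Prmt6, Prmt9 and Wdr77). SMYD, SETDB, PHF and other near relatives outside the naming rule were marked in 7 of 17. H3K4 complex subunits were so marked in 1 of 11 (Paxip1), Polycomb subunits in 3 of 22 (Rbbp4, Pcgf3 and Phf1) and H3K9 readers and partners in 2 of 11 (Cbx3 and Mphosph8). In the 5XFAD only pattern of microglia (3.23% of all genes) there were 9 of the 71: Aebp2, Cbx7, Hcfc1, Ncoa6, Pcgf2, Pcgf6, Prmt1, Setdb1 and Smyd2. In that of total cells (3.14% of all genes) there were 4: Mecom, Morc2a, Rbbp7 and Rcor1. The other 4 patterns held 0 of the 71.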

How the data were processed

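The 8 CUT&Tag libraries were processed by the submitters with fastp 0.19.6, Bowtie2 and deepTools on GRCm38 (mm10), per the submitters' processing notes. Which peak caller was run, and with what threshold or control, is not given in the sources used here. For each library the authors deposited 1 headerless peak list with a whole-number score whose unit is not stated and whose lowest value was 20 in all 8 lists. Scores served only to rank and filter peaks within a list. Groups and replicate numbers come from the sample titles.

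Peaks were overlapped (1 base or more) with windows of 2 kb on either side of both ends of each gene in the RefSeq table (GRCm38.p6), in Python 3.11.15 with numpy 2.4.6 and pandas 2.3.3. Starts of peaks were read as counted from 0. Covered bases were log2 transformed, centred on the library median and fitted in limma 3.58.1 (R 4.3.3) with 4 group means. Genes were named by these rules: 1-group patterns, limma calls, the 6 highest and 3 lowest mean percentiles of the genes in all 8 libraries, and 1 gene per class; others are described as chosen after their values were seen (Kdm4c, Prdm10) or as relatives, class members or alternatives. Some genes that meet these rules are counted but not reported here by name. Members and lists were chosen with earlier results of these data known.

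At most 193 exact intervals were shared by any 2 lists, and all 8 libraries were kept as separate. Alternatives were the window, peak numbers, score, midpoint, centring, filter, replicate block and leaving out each library.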

Additional observations from a re-analysis of the deposited data

How the results depend on the processing

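In 225 of 283 recomputed values the direction and the side of the threshold, or the count within 1.5 times, were kept. The 17 genes marked in all 8 libraries became 17 to 20, and the 8 marked in none became 8 to 11, when any 1 library was left out; with a 5 kb window 4 were marked in none. Patterns of 1 group rest on few genes. Microglia only gave 1 gene with a 1 kb window and 0 to 1 when a library was left out. Total cells only gave 0 with a 1 kb window, equal numbers of peaks, scores of at least 50 or peak midpoints, 2 with a 5 kb window and 1 to 2 when a library was left out. 5XFAD only in microglia gave 1 with windows of 1 kb or 5 kb or equal numbers of peaks and 2 to 9 when a library was left out, and WT only in microglia gave 1 with equal numbers of peaks and 0 to 4. 5XFAD only in total cells gave 5 with scores of at least 50 and 1 to 6 when a library was left out, and WT only in total cells gave 1 with a 1 kb window, 2 with peak midpoints and 1 to 3.

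Calls on covered bases in microglia against total cells were 5 without centring, 5 with a peak in at least 4 libraries and log2(bases + 100) (Ehmt1 and Kdm5c among them, which met that filter by the preparation where they are marked), and 0 to 3 when a library was left out. Genotype in total cells gave 1 call with a peak in at least 4 libraries (Kdm3a, from the values of its presence pattern). Genotype in microglia gave 0 under all 15 alternatives. Kdm6a turned from -0.53 to 0.23 without centring. Setd7 could not be fitted with equal numbers of peaks, because it then lacked a peak in 1 library or more. With the replicate number as a block, the same 3 genes were lower in microglia (3 calls; limma adjusted p = 0.00984 for Setd7 and 0.0198 for Nsd1), and the genotype comparisons gave 0 and 0. Deviations of same-numbered libraries from their group means in covered bases correlated at -0.0365 to 0.0949. With 2 libraries per group this cannot show whether libraries of equal number were paired. The cause of each change was not tested. Depth is unknown from peak lists and limits what absence means.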
